A study of Mus musculus with 5 samples.

Results

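Proteasome subunit genes were examined in mouse liver on 5 microarrays. The members are the probes whose gene symbol in the platform annotation matches Psma, Psmb, Psmc, Psmd, Psme or Psmf followed by a number, and of several probes for a gene the one brightest on average over the 5 arrays was taken. The rule found 41 genes on 49 probes, of 16637 named genes on 21020 named probes, and it uses names only, no measured values. Of the 41 genes, 12 encode constitutive subunits of the core particle, 3 encode immunoproteasome subunits (Psmb8, Psmb9 and Psmb10), 1 is the testis form Psma8 and 25 encode regulatory particles, activators, assembly factors or the inhibitor PI31. Psma5, Psmb3 and Psmb11 matched no named probe and were not analysed here.

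The groups were wild-type (WT) C57BL/6 mice on chow, WT mice on a high-fat diet, WT mice given both that diet and NDGA (nordihydroguaiaretic acid, a lignan that inhibits lipoxygenases and scavenges radicals), ob/ob mice on chow, and ob/ob mice on chow with NDGA. NDGA was mixed into the food at 2.5 g per kg, and the diets were given for 16 weeks. The ob/ob animals, labelled with the same C57BL/6 background, lack functional leptin in every tissue. RNA of 3 animals per group was used, with 1 array per group, so there are no replicates, no test and no error for any value, and the sources used here do not say whether the RNA was pooled or how old the animals were. Every difference below is between 2 arrays, and in whole liver more RNA per cell and more cells of a type cannot be told apart.

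The 26S proteasome is the protease that destroys ubiquitin-tagged proteins. Its barrel-shaped 20S core has outer rings of alpha subunits, which gate the entrance, and inner rings of beta subunits, of which Psmb6, Psmb7 and Psmb5 carry the caspase-like, trypsin-like and chymotrypsin-like sites. A 19S particle on the end of the barrel recognises ubiquitin chains, removes them and unfolds the substrate with a ring of Psmc ATPases. Interferon-gamma replaces the catalytic subunits by Psmb9, Psmb10 and Psmb8 to form the immunoproteasome, which favours peptides for antigen presentation, and adds the PA28 cap of Psme1 and Psme2. When the proteasome is inhibited, the transcription factor encoded by Nfe2l1 raises its subunit genes together.

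Array medians of deposited intensity were 38.1 to 47.0 on 4 arrays and 71.0 with NDGA in ob/ob, so differences were taken after quantile normalization, as differences of log2(intensity + 50), and deposited intensities are printed as they are. A gene counted as expressed when its mean log2 value reached the median over all genes. This kept 8319 genes and 27 of the 41 members: 10 core, 2 immunoproteasome and 15 regulatory. Psmd3 was the member just above that limit (intensity 87.0 to 290.4 over the arrays) and Psmb9 just below it (33.8 to 129.9). All 8 measured hepatocyte markers were expressed. The summed deposited intensity of 12 skeletal muscle markers was 1748 to 2115 on the 3 arrays without NDGA. It was 10742 on WT high-fat diet with NDGA and 5405 on ob/ob chow with NDGA. On the NDGA arrays Ckm, the muscle creatine kinase, read 1501 and 316, against 11.7 to 12.4 on the others. After normalization the sums were 1943 to 2750 without NDGA, 11408 in WT with NDGA and 3729 in ob/ob with NDGA. Of the 8 expressed muscle markers, 7 were higher with NDGA in WT and 7 in ob/ob. The log2 difference was below 0 for Tnnt3 in WT (-0.76) and for Pvalb in ob/ob (-0.43). Proteasome genes are active in muscle too, and the part of muscle RNA in the values of both NDGA arrays was not tested. For scale, 835 genes with 2 bright probes gave an SD per probe of 0.28 to 0.46 on the log2 scale between probes of the same gene.

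**Figure D1:**
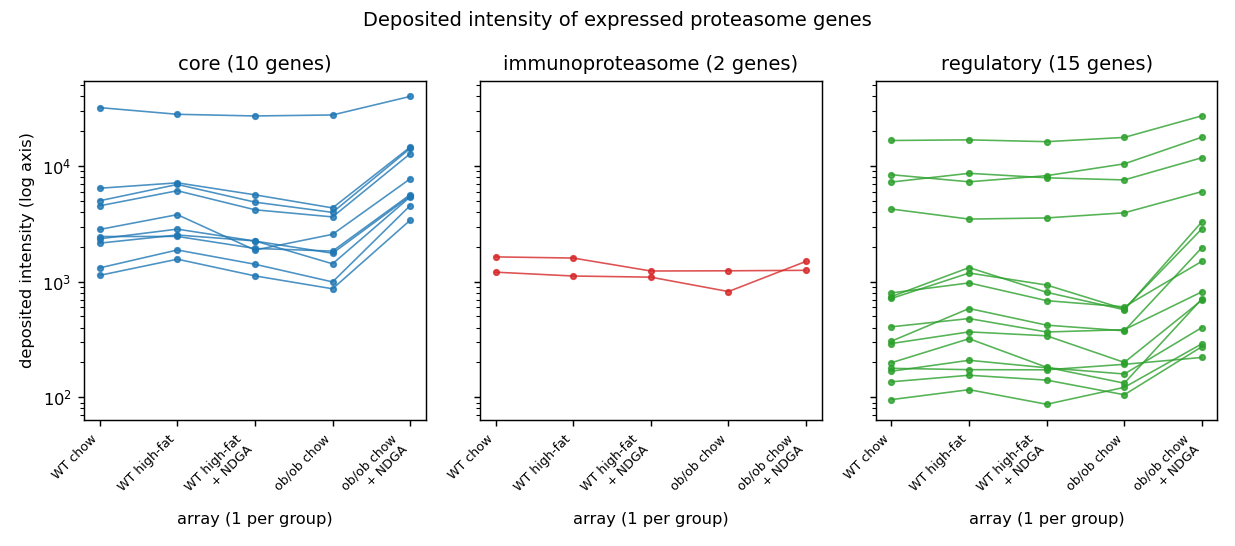
Deposited intensity (log axis) of the 27 expressed proteasome genes on the 5 arrays, with 1 line per gene in core, immunoproteasome and regulatory panels; lines only join the values of a gene. Of the 10 core genes, 9 were at least 3 times as bright on ob/ob chow with NDGA as on ob/ob chow. The same held for 16.2% of all expressed genes, whose median ratio was 1.70. The 2 immunoproteasome genes were 1.01 and 1.82 times as bright.

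In ob/ob mice on chow, NDGA gave the largest differences among proteasome genes. Of 10 expressed core genes 8 were at least 1.5-fold higher with NDGA, as were 5 of 15 regulatory genes, while Psmb8 was lower. Of 27 expressed members, 13 were at least 1.5-fold higher, where 16.5% of all expressed genes were, and 5 were at least 2-fold higher, where 6.58% were. These 5 were Psmc1, Psmd8, Psmc3, Psmd13 and Psmb5. Psmb8 was the 1 member at least 1.5-fold lower, a call that 11.2% of all genes met, and 0 members were at least 2-fold lower (0.481% of all genes). The median log2 difference was 0.70 for core, 0.36 for regulatory and -0.48 for the 2 immunoproteasome genes, against -0.10 for all expressed genes. Before normalization, 14 of the 27 members were at least 3 times as bright with NDGA, as were 16.2% of all expressed genes, whose median ratio was 1.70. Without normalization 17 members and 31.6% of all expressed genes were at least 2-fold higher, and with arrays centred on their medians 14 members and 14.7% of all genes. At 1.5-fold the split of all genes was 55.7% higher and 0.060% lower without normalization, and 29.5% and 0.613% when centred. Psmb8 no longer passed 1.5-fold downward under either scaling or with the mean of its probes. The members belong to 1 complex and are not independent of each other.

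The high-fat diet gave small differences from chow in WT mice. Most core and 19S genes were somewhat higher on the high-fat array. The 4 members at least 1.5-fold higher were Psmd8 (0.84), Psmc1 (0.77), Psmd13 (0.66) and Psmc3 (0.59), and 10.6% of all expressed genes passed the same fold, so 4 of 27 is close to the background. Psmd8 and Psmc1 are subunits of the 19S lid and base. None of the 27 was at least 2-fold higher (2.13% of all genes) or lower (1.29%), and 0 were at least 1.5-fold lower (6.05%). Core genes had a median of 0.31 and regulatory genes of 0.22, beside -0.00 for all expressed genes. Of the 27 members 19 were above 0, as were 49.4% of all expressed genes. The 2 expressed immunoproteasome genes were at -0.01 (Psmb8) and -0.13 (Psmb10), and on their second probes at 0.41 and 0.25. Their median turned from -0.07 to 0.20 with the mean of probes.

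In WT mice on the high-fat diet, NDGA went with differences of the opposite sign. Of the 27 members, 22 were lower with NDGA, as were 53.3% of all expressed genes. Medians were -0.36 for core, -0.29 for regulatory and -0.24 for immunoproteasome genes against -0.04 for all expressed genes. Psmb7, which carries the trypsin-like site, was the 1 member at least 2-fold lower (-1.04), where 1.54% of all genes were, and it fell short of 2-fold without normalization and after loess. At least 1.5-fold lower were Psmb7, Psmc3 (-0.79) and Psmc1 (-0.74), where 9.94% of all genes were, so this count is near the background. In the other direction, 0 members were at least 1.5-fold (8.07% of all genes) or 2-fold higher (0.841%). This comparison and the diet comparison share the WT high-fat array, so a value that is high there makes both.

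ob/ob against WT on chow differed least. The median was -0.11 for core, 0.12 for regulatory and -0.20 for immunoproteasome genes, against 0.03 for all expressed genes. The regulatory median was below 0 without normalization (-0.07), with centred arrays (-0.06) and with dim genes included (-0.02). The median of all genes in these settings was -0.15, -0.14 and 0.01. The regulatory median thus stayed above that of all genes under both scalings and fell below it with dim genes included. Psme1, a subunit of the PA28 cap, was the 1 member at least 1.5-fold higher (0.65), where 3.75% of all genes were, but its second probe had the opposite sign (-0.24), and 0 members passed without normalization, with centred arrays, after loess or with the mean of probes. None was at least 1.5-fold lower (3.99% of all genes), 2-fold higher (1.03%) or 2-fold lower (1.77%). The comparison shares its WT chow array with the diet comparison and its ob/ob chow array with NDGA in ob/ob.

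**Figure D2:**
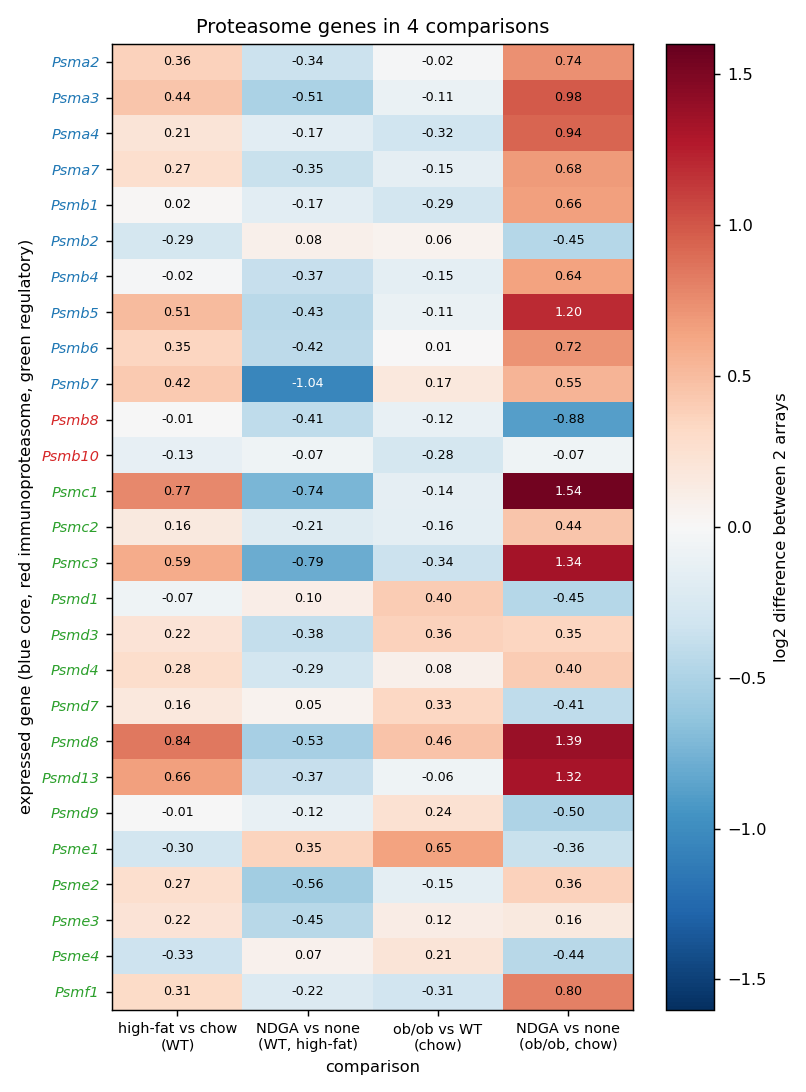
Log2 difference (colour and printed value) of the 27 expressed proteasome genes in the 4 comparisons, with gene names in blue for core, red for immunoproteasome and green for regulatory. The column for NDGA in ob/ob runs from -0.88 (Psmb8) to 1.54 (Psmc1), and the column for NDGA in WT is mostly below 0.

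The alpha subunits form the outer rings of the core. Psma3 read 1135 on WT chow, 1565 on WT high-fat diet, 1122 with NDGA on that diet, 868 in untreated ob/ob mice and 3402 in those given NDGA. Psma4 read 2156, 2535, 2251, 1427 and 5413 in the same order. Psma2 read 5015, 6936, 4875, 3975 and 14213. In each of these genes the high-fat array was the highest of the 3 WT arrays, and ob/ob chow with NDGA was the highest array both as deposited and after normalization. The normalized differences with NDGA in ob/ob were 0.98 for Psma3, 0.94 for Psma4, 0.74 for Psma2 and 0.68 for Psma7, and all 4 expressed alpha genes were at least 1.5-fold higher. Psma1 and Psma6 were dim on all arrays (at most 5.36 and 26.8) and give no information on the ring.

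The beta subunits form the catalytic inner rings. Psmb5, the chymotrypsin-like subunit, read 1317 on WT chow, 1881 on high-fat diet, 1415 with NDGA on it, 995 in untreated ob/ob mice and 4554 in those given NDGA, a normalized difference of 1.20 for the latter pair. Psmb6, the caspase-like subunit, read 4533, 6120, 4188, 3633 and 12803 in that order (0.72). Psmb7 read 2831, 3800, 1878, 2569 and 7759 (0.55). All 3 were highest on ob/ob chow with NDGA, but Psmb7 had its lowest value on WT high-fat diet with NDGA, whereas Psmb5 had its lowest on ob/ob chow. The structural subunits Psmb1 and Psmb4 were at 0.66 and 0.64 with NDGA in ob/ob. Psmb2 stood apart from the other core genes: it read 32040, 28051, 27134, 27679 and 40042, and its normalized differences were -0.29 on the diet, 0.08 with NDGA on it, 0.06 in ob/ob against WT and -0.45 with NDGA in ob/ob.

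Psmc genes encode the 6 ATPases of the 19S base, which unfold substrates and push them into the core. Psmc1 read 743 on WT chow, 1324 on high-fat diet, 809 with NDGA on it, 572 in untreated ob/ob mice and 3296 in those given NDGA. It had the largest difference of any member with NDGA in ob/ob (1.54, 2.91-fold). Psmc3 read 199, 321, 182, 132 and 710 (1.34, 2.52-fold), and Psmc2 read 136, 155, 141, 105 and 274 (0.44). The 3 expressed ATPases thus had the same order of arrays at both ends, with ob/ob chow lowest and ob/ob chow with NDGA highest. Psmc5 and Psmc6 were dim, at 42.4 to 132.1 and 34.0 to 142.2, with the same lowest and highest arrays, and Psmc4 was at background on every array.

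Among the non-ATPase subunits of the 19S particle, Psmd8, a lid subunit, read 306 on WT chow, 586 on high-fat diet, 421 with NDGA on it, 376 in untreated ob/ob mice and 1972 in those given NDGA (1.39 for the latter pair). Psmd13, also of the lid, read 716, 1189, 935, 581 and 2872 (1.32). Psmd4, a ubiquitin receptor, read 168, 209, 180, 159 and 401 (0.40). These 3 shared the highest array. Psmd1, the large scaffold of the base, read 16648, 16860, 16260, 17703 and 27219, and Psmd7, the partner of the deubiquitinase Psmd14, read 7275, 8658, 7917, 7592 and 11814. Both were at their highest on ob/ob chow after normalization and were at -0.45 and -0.41 with NDGA in ob/ob. Psmd14 itself was dim (29.2 to 137.5, difference 0.79). Psmd9, an assembly chaperone of the base, was at -0.50 on its brighter probe and at -0.47 on its second.

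The activators bind the core in place of the 19S particle. Psme2, the beta subunit of PA28, read 799.7 on WT chow, 976 on high-fat diet, 685 with NDGA on it, 606 in untreated ob/ob mice and 1500.5 in those given NDGA. Psme1, its alpha partner, read 8420, 7311, 8263, 10456 and 17783, and on its second probe 3514, 2708, 2873, 2443 and 5433. With NDGA in ob/ob, Psme2 was at 0.36 and Psme1 at -0.36 on one probe and 0.15 on the other. Psme1 was at 0.76 on its brighter probe without normalization and at 0.31 with centred arrays, so its sign depends on the scaling. Psme3, the nuclear PA28-gamma, was at 0.16 and Psme4, the PA200 activator, at -0.44. Psmf1, which encodes the core-binding protein PI31, read 292, 368, 340, 200.3 and 693 and was higher with NDGA in ob/ob by 0.80.

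Each immunoproteasome gene was set against the constitutive subunit it replaces. Psmb8 read 1638 on WT chow, 1601 on high-fat diet, 1237 with NDGA on it, 1242 in untreated ob/ob mice and 1254 in those given NDGA. The deposited value did not follow the brighter level of the ob/ob NDGA array, and the normalized difference was -0.88 against 1.20 for Psmb5. The change of Psmb8 minus that of Psmb5 was -2.08 (4.23-fold), and -2.13 on the deposited values, where no scaling enters. The second probe of Psmb8, at 14.6 to 58.5 and so near background, was at 0.42 in that comparison, where the same difference from Psmb5 was -0.78. In the other comparisons the difference between them was -0.52 on the diet (-0.10 on the second probe), 0.02 with NDGA on it and -0.01 in ob/ob against WT.

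Psmb10, which replaces Psmb7, read 1209 on WT chow, 1119 on high-fat diet, 1094 with NDGA on it, 822 in untreated ob/ob mice and 1499 in those given NDGA. Its gap to Psmb7 was -0.62 with NDGA in ob/ob, -0.55 for the diet and 0.97 with NDGA in WT, the last because Psmb7 was lower there while Psmb10 was at -0.07. On its second probe (76.6 to 154.2) the gaps were -0.40, -0.17 and 0.72. Psmb9, which replaces Psmb6, read 69.4, 129.3, 72.6, 33.8 and 129.9 and was below the expression limit. It was at 0.62 on the diet, at -0.67 with NDGA on it, at -0.48 in ob/ob against WT and at 0.64 with NDGA in ob/ob, and in the latter its gap to Psmb6 was -0.08, or -0.70 on the deposited values. With NDGA in WT and in ob/ob against WT all 3 immunoproteasome genes were below 0. On the diet and with NDGA in ob/ob Psmb9 was above 0 and the brighter probes of the others below it. The second probes of Psmb8 and Psmb10 had the signs of Psmb9 in every comparison, and were at 0.42 and 0.15 with NDGA in ob/ob. Without normalization their brighter probes were at 0.013 and 0.83 there, where the median of all expressed genes was 0.67.

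**Figure D3:**
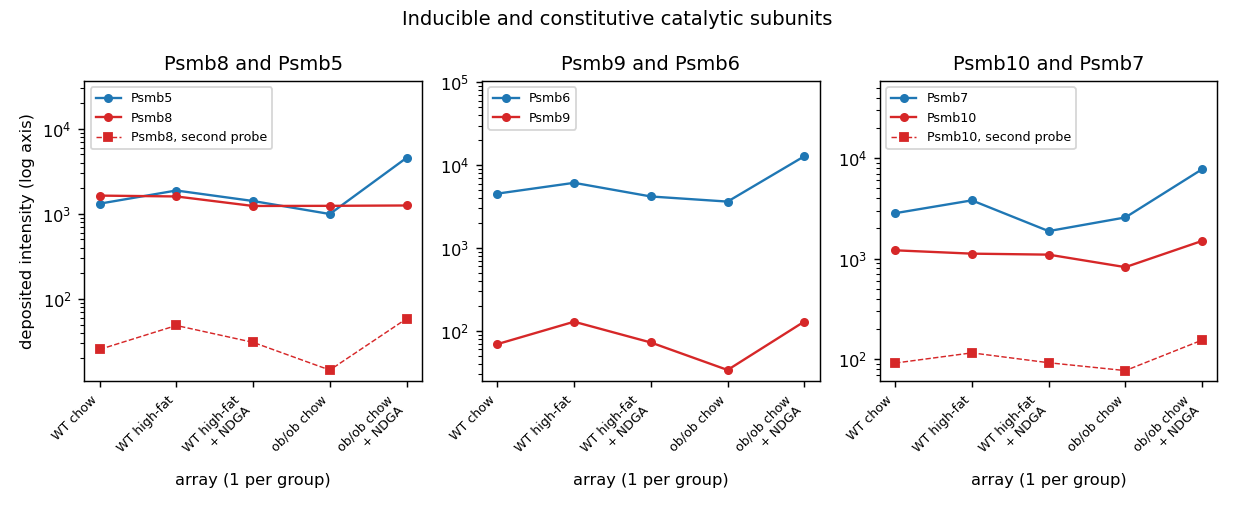
Deposited intensity (log axis) of each inducible catalytic subunit (red) and its constitutive counterpart (blue) on the 5 arrays; dashed lines are second probes, and the height of different probes is not comparable. Psmb8 stayed at 1242 and 1254 on the ob/ob arrays while Psmb5 read 995 and 4554.

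Promoters were searched for 3 elements that are known in promoters of proteasome genes. RefSeq promoters of build GRCm38.p6, running from 250 bases before to 50 after the gene start, matched 34 of the 41 members by symbol (7 had no entry: Psma8, Psmb1, Psmb2, Psmb7, Psmc3, Psmd3 and Psmd7). On both strands, the antioxidant response element core TGACNNNGC was in 6 of the 34 genes (17.6%; 12.4% of all 32851 promoters), the interferon-stimulated response element core (GAAA, any pair of bases, GAAA) in 3 (8.82%; 3.44%) and the gamma-activated site TTCNNNGAA in 2 (5.88%; 8.30%). The shares of members count genes, whereas those of all count promoters. The 34 genes have 37 promoters, of which 6, 3 and 2 held the elements in that order. The promoters below are those of 2 constitutive catalytic subunits, of Psmb8 and of Psme1, with the matched letters in capitals and each sequence 5′ to 3′ on the gene's strand. Psmb5 lies on chr14:54617946-54618245 (minus strand), Psmb6 on chr11:70525107-70525406 (plus), Psmb8 on chr17:34197945-34198244 (plus) and Psme1 on chr14:55578244-55578543 (plus). In Psmb5 and Psmb6 the capitals mark TGACNNNGC, in Psmb8 TTCNNNGAA and in Psme1 the interferon-stimulated element core on the opposite strand.
Psmb5: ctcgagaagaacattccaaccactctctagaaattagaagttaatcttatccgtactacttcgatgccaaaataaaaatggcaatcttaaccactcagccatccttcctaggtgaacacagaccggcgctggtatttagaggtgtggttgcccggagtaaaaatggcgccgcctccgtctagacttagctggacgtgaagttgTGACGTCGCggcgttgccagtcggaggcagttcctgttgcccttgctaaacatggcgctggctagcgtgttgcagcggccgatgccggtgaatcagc
Psmb6: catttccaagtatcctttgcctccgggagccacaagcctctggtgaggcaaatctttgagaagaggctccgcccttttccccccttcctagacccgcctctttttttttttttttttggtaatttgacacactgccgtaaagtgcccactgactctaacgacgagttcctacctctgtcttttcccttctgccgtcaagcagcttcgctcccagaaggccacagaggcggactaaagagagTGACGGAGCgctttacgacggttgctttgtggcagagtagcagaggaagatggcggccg
Psmb8: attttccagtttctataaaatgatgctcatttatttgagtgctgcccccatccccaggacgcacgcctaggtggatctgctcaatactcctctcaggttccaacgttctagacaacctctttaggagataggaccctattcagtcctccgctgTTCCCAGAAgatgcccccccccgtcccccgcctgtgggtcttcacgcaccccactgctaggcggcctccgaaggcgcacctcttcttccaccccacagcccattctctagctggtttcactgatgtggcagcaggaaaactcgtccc
Psme1: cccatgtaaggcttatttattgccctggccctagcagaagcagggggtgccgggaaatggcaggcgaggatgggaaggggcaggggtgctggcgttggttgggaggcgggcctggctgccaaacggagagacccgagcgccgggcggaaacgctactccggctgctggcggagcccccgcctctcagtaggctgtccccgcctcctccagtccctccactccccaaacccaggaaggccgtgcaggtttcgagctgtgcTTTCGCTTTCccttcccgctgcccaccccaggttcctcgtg

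The antioxidant element core was found in 4 expressed members, Psmb5, Psmb6, Psmd9 and Psme4, and in the dim members Psmc6 and Psmd12. With NDGA in ob/ob these 4 were at 1.20, 0.72, -0.50 and -0.44, so members with the letters lay on both sides of 0. The dim Psmc6 was at 0.72 there (0.06 on its second probe) and the dim Psmd12 at 0.51. Psmc1, Psmd8 and Psmd13, among the highest in that comparison, held none of the 3 motifs in this window. The interferon-stimulated element core was found in Psmd4 (0.40), Psmd9 and Psme1, and the gamma-activated site in Psmb8 and the dim Psmd2. A match of letters is a description of the sequence and not a binding site.

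Both NDGA comparisons were set side by side, since they share no array. Of the 27 members, 19 (70.4%) were lower with NDGA in WT and higher with NDGA in ob/ob, as were 35.3% of all expressed genes. All 13 members at least 1.5-fold higher with NDGA in ob/ob were lower with NDGA in WT. The same was true of 92.3% of the 1372 expressed genes past that fold, whose median was -0.49 in WT, and 95.3% of these were above 0 on high-fat diet against chow. Over 8319 expressed genes the 2 NDGA comparisons correlated at r = -0.54 (Pearson, -0.55 on deposited values), and over the 27 members at -0.63. The points come from the same 4 arrays, and no p is given. The mirrored signs of the proteasome genes are therefore shared by most genes that were higher on the ob/ob NDGA array. On their brightest probes, Psmb8 (-0.41 and -0.88), Psmb10 (-0.07 and -0.07) and Psmd9 (-0.12 and -0.50) were below 0 in both comparisons. The other 5 members, Psmb2, Psmd1, Psmd7, Psme1 and Psme4, were above 0 in WT and below 0 in ob/ob. On second probes Psmb8 was at -0.40 and 0.42, Psmb10 at -0.32 and 0.15, Psmd9 at 0.22 and -0.47 and Psme1 at 0.08 and 0.15. None of these kept both signs, whereas Psme4 did (0.30 and -0.08).

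**Figure D4:**
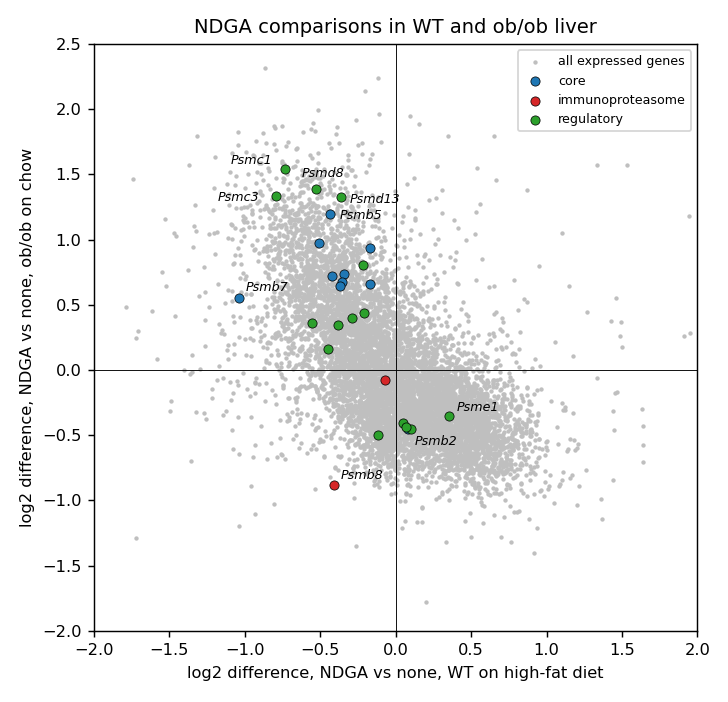
Log2 difference with NDGA in WT on high-fat diet (horizontal axis) against that with NDGA in ob/ob on chow (vertical axis) for all expressed genes (grey) and for core, immunoproteasome and regulatory genes; genes outside the axis limits are not drawn. Of the 27 members, 19 lie in the upper left field, along the slope of the grey points, and Psmb8, drawn on its brighter probe, lies in the lower left field.

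Of the 8 members below 0 with NDGA in ob/ob, 4 were on the brightest probes. At a mean normalized intensity of 6000 or more, 6 members (Psma2, Psmb1, Psmb2, Psmd1, Psmd7 and Psme1) had a median of -0.38, against -0.10 for the 437 genes of that range, while Psma2 and Psmb1 were above 0 there. Between 1000 and 6000 the median was 0.70 over 12 members and -0.18 over 1771 genes. From 200 to 1000 it was 0.60 over 6 members and -0.10 over 3770 genes, and below 200 it was 0.35 over 3 members and -0.06 over 2341 genes. The median of the members was above that of genes of like brightness in the 3 lower ranges and below it in the highest. Psme4, Psmd9, Psmb8 and Psmb10, which were also below 0, lie in the lower ranges. Without normalization all 8 of these members were above 0, and with centred arrays 6 of them were (not Psmb8 and Psmd9). Against the median of all expressed genes under those scalings, Psmb10 and Psme1 lay above it and the other 6 below it.

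**Figure D5:**
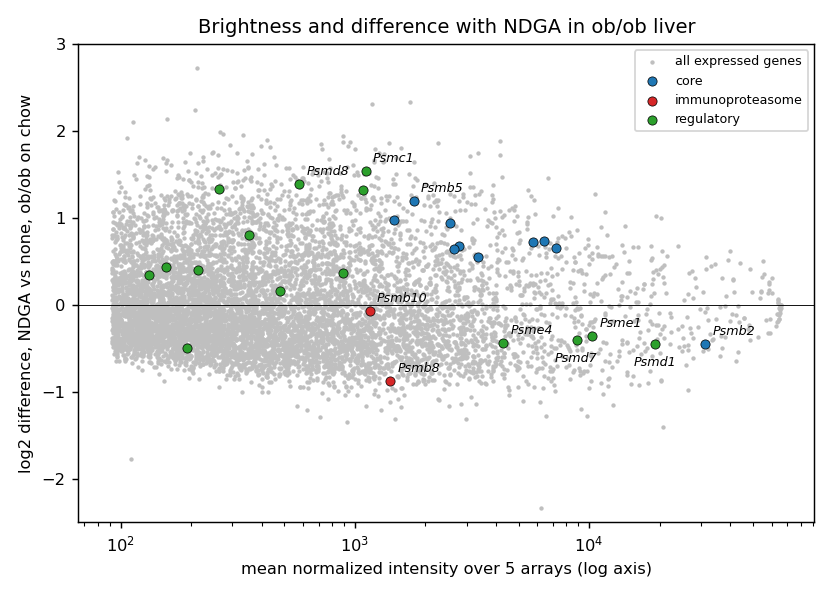
Log2 difference with NDGA in ob/ob on chow against the mean normalized intensity over the 5 arrays (log axis) for all expressed genes (grey) and for core, immunoproteasome and regulatory genes; genes outside the axis limits are not drawn. Psmb2 and Psmd1 lie below 0 at the bright end, whereas most members between 1000 and 6000 lie above 0.

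The other 14 members were dim, and the offset of 50 shrinks their differences. Their median was 0.32 with NDGA in ob/ob, against -0.00 for all dim genes, with 4 of them at least 1.5-fold higher (the highest was Psmd11, a lid subunit, at 0.81) and 0 lower. Of the 8318 dim genes in all, 4.84% were at least 1.5-fold higher and 0.83% lower. In the other comparisons their medians were 0.01 on the diet, -0.18 with NDGA on it and -0.08 in ob/ob against WT. Psma8, the testis form of an alpha subunit, stayed at 3.24 to 13.6, at background.

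Genes that work with the proteasome were taken as lists. Of 6 genes for other 26S subunits and associated proteins, 4 were expressed, and 3 of these were at least 2-fold higher with NDGA in ob/ob (median 1.11). Of all expressed genes, 6.58% passed that fold. Uchl5, a deubiquitinase of the 19S particle, read 105 on WT chow, 229.7 on high-fat diet, 106 with NDGA on it, 103 in untreated ob/ob mice and 546 in those given NDGA. Its differences were 0.89 on the diet, -0.96 with NDGA on it, 0.09 in ob/ob against WT and 1.27 with NDGA in ob/ob. Usp14, another 19S deubiquitinase, was at 0.80, -0.80, -0.01 and 1.16. Sem1, a small lid subunit, was at 1.05 with NDGA in ob/ob, and the ubiquitin receptor Adrm1 was at 0.45 there and at -0.61 with NDGA in WT. These 4 genes had the same signs as Psmc1 and Psmc3 in the diet comparison and both NDGA comparisons.

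Among core assembly chaperones, 3 of 4 measured were expressed. Pomp, the maturation factor of the core, read 2511 on WT chow, 3308 on high-fat diet, 2622 with NDGA on it, 1495 in untreated ob/ob mice and 6983 in those given NDGA (1.18 for the latter pair). Psmg1 was at 1.36 and its partner Psmg2 at -0.15 in that comparison, and Psmg1 was at -0.63 with NDGA in WT. Psmg3 was dim (13.6 to 57.6).

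Nfe2l1 read 1644, 1681, 1668, 1221 and 2547 over the arrays in the order above, with differences of 0.06, -0.06, -0.15 and 0.13, all smaller than the spread between probes of a gene. Nfe2l2, which encodes NRF2, was dim (6.99 to 18.5). Of 8 measured regulators 2 were expressed, and 0 of these were at least 1.5-fold apart in any comparison. Both factors are controlled mainly as proteins, which the arrays do not measure. Of 8 expressed ubiquitin shuttle and VCP complex genes, 3 were at least 1.5-fold higher with NDGA in ob/ob: Ufd1 (0.87), Zfand2a (0.74) and Nploc4 (0.72). Of all expressed genes, 16.5% passed that fold. In WT with NDGA, Ufd1 was the 1 gene of that list at least 1.5-fold lower (-0.66), where 9.94% of all genes were. Of the ubiquitin genes and their activating enzymes, 1 of 6 was measured by a named probe, Uba6, and it was at background.

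A list of interferon-gamma antigen processing genes, which also holds the receptor chains Ifngr1 and Ifngr2, was mixed. With NDGA in ob/ob, the 7 expressed of 10 measured had a median of -0.09 against -0.10 for all genes. Irf1, the transcription factor that drives immunoproteasome genes, read 3223 on WT chow, 2880 on high-fat diet, 2192 with NDGA on it, 2206 in untreated ob/ob mice and 2492 in those given NDGA. Its normalized difference for the latter pair was -0.75, while its deposited value was higher with NDGA, so the sign depends on the scaling. B2m, the light chain of MHC class I, was at -0.41 and H2-D1, a class I heavy chain, at 0.84. Tap1, a subunit of the peptide transporter, read 70.9 to 128.4 and was at -0.09. With NDGA in WT the list had a median of -0.39, with H2-D1 at -0.80 and Ifngr1, a chain of the interferon-gamma receptor, at -0.74. In the diet comparison, the receptor chains Ifngr2 (0.76) and Ifngr1 (0.65) were the genes of the list at least 1.5-fold higher, where 10.6% of all genes were. Tapbp (-0.60), the MHC loading factor tapasin, was at least 1.5-fold lower, where 6.05% were. In ob/ob against WT the list had a median of -0.23, against 0.03 for all expressed genes, and 2 of the 7 expressed genes were above 0. Ifngr2 (0.74) was the 1 gene at least 1.5-fold higher, where 3.75% of all genes were, and Tapbp was the lowest (-0.58).

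Leukocytes express the immunoproteasome at a high level, so their markers stand beside it. The summed deposited intensity of 13 macrophage markers was 7039 on WT chow, 11041 on high-fat diet, 6173 with NDGA on it, 11680 in untreated ob/ob mice and 20742 in those given NDGA. After normalization the sum was 15610 and 14130 on the ob/ob arrays. With NDGA there, 2 of the 12 expressed (Adgre1 and Mpeg1) passed 2-fold upward (6.58% of all expressed genes) and 0 downward (0.481%). On high-fat diet 5 of 12 were at least 2-fold higher (2.13% of all expressed genes) and with NDGA on it 5 of 12 were at least 2-fold lower (1.54%). There Psmb8 was at -0.01 and -0.41 (0.41 and -0.40 on its second probe), Psmb9 at 0.62 and -0.67 and Psmb10 at -0.13 and -0.07 (0.25 and -0.32 on its second probe). In ob/ob against WT all 12 expressed macrophage markers were above 0 (median 0.81). Of these, 3 were at least 2-fold higher (1.03% of all expressed genes). Psmb8, Psmb9 and Psmb10 were at -0.12, -0.48 and -0.28 in that comparison. The second probes of Psmb8 and Psmb10 were at -0.28 and -0.06. The 8 measured T and NK cell markers summed to 1477 to 2027, with Cd3d, Nkg7 and Gzmb at or below 50 on every array, and after normalization to 1983 on ob/ob chow and 1365 with NDGA. The 3 measured B cell markers summed to 372 to 618, and dendritic cell markers to 76.9 to 123.2, with Itgax, Flt3, Xcr1 and Ccr7 at or below 50 on all arrays. Stellate cell markers summed to 5982 to 18088 and endothelial ones to 17441 to 30250, both with the highest sum in ob/ob with NDGA as deposited. After normalization the stellate sum was 10335 on ob/ob chow and 11988 with NDGA. The endothelial sum was then 26546 on ob/ob chow and 19641 with NDGA, the lowest of the 5 arrays. The part of these cells in the immunoproteasome values was not tested.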

How the data were processed

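Liver total RNA was amplified, labelled with Cy5 and put on 1-colour Phalanx Mouse OneArray V1 arrays, per the labels' protocols and the series' design text. Deposited values are intensities on a linear scale (they include negative values and reach saturation), and the sources used here name no scanner, background method or scaling. Of 29922 probes, 21020 carried 1 gene symbol and 8902 had none in the platform annotation table. A RefSeq table (GRCm38.p6) updated the symbols: 17558 were current, 3410 were replaced by a unique synonym and 52 were kept. All probes were quantile normalized over the 5 arrays and log2(value + 50) was taken. Calls are differences of at least 1 (2-fold) or 0.58 (1.5-fold) on that scale, which understates dim genes. No test was possible with 1 array per group, and the number of arrays limits the precision. The planned likeness of members over arrays was not computed, since 5 arrays are too few for a correlation. The members and lists were chosen with earlier results of these data known. Genes are named where at least 1.5-fold apart, at the ends of a structural group, or as catalytic pairs and activators. Results were recomputed with 9 other settings (scaling, filter, probes, floor, offset, saturation) and 1 added after the data were seen. Python 3.11.15, pandas 2.3.3, scipy 1.17.1 and statsmodels 0.14.6 were used. The steps were tested on simulated data.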

Additional observations from a re-analysis of the deposited data

Results flagged for a closer look

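Psmc1 and Psmc3, ATPases of the 19S base, differed with NDGA in opposite directions in the 2 settings, each by at least 1.5-fold. Psmc1 was at -0.74 in WT on high-fat diet and at 1.54 in ob/ob on chow. Psmc3 was at -0.79 and 1.34. The difference between the settings was not tested, since each rests on 1 array per group, and diet as well as genotype differ between them. Of all expressed genes at least 1.5-fold higher with NDGA in ob/ob, 92.3% were lower with NDGA in WT.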

How the results depend on the processing

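A value counted as moved when it shifted by more than the SD between probes of a gene, and a count when it changed by more than 1.5 times. Without normalization, the median of all expressed genes with NDGA in ob/ob was 0.67, and 0.21 with arrays centred on their own medians. In that comparison the median of core genes was 1.77 without normalization and 1.31 centred (1.10 above all genes in both), that of immunoproteasome genes 0.42 without normalization and 0.038 with the mean of probes, and that of regulatory genes 1.06 without normalization. The number of members at least 2-fold higher was 17 without normalization (31.6% of all genes) and 14 centred (14.7%), at least 1.5-fold higher 24 without normalization (55.7%), and at least 1.5-fold lower 0 without normalization, centred and with the mean of probes. Relative to all expressed genes, the core median lay between 0.69 and 1.10 and the gap of Psmb8 to Psmb5 between -2.13 and -1.43 over the alternatives. Psmb8 itself lay between -0.91 and 0.01. With NDGA in WT, 0 members were at least 2-fold lower without normalization and after loess, where Psmb7 was as high as -0.96, and 6 were at least 1.5-fold lower when centred (12.2% of all genes). In ob/ob against WT, 0 members were at least 1.5-fold higher without normalization, centred, after loess and with the mean of probes. The cause was not tested. Filters, the floor, the smaller offset and leaving out saturated probes moved none of these counts and medians by that much. Normalizing without the ob/ob NDGA array, added after seeing the data, moved none in the 3 comparisons it can be run for, which leave out NDGA in ob/ob. No paired analysis was possible because each group has 1 array. Low signal over background limits the 14 dim members.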
